A study of Homo sapiens with 6 samples.

Results

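The MAL and CMTM proteolipids are small, hydrophobic proteins built around the MARVEL domain, a stretch of the protein that crosses the membrane several times. The family was taken as the rows of the FPKM table (fragments scaled to transcript length and library size) for MAL, MAL2, MALL, PLLP, MYADM, CMTM3, CMTM4, CMTM6, CMTM7 and CMTM8, which gave 10 of the 26255 gene symbols in the table. The cells were MDA-MB-231, a mesenchymal line from a human breast cancer, and their RNA was sequenced after lentiviral infection with a control hairpin (shNT, 3 libraries) or with a hairpin against GPR81 (shGPR81, 3 libraries). GPR81, encoded by HCAR1, is the cell surface receptor for lactate, and the study silenced it to ask what it does in breast cancer cells. Cells of both groups were infected and then kept in puromycin, so the controls also carry a vector. The study made 2 lines with different hairpins against GPR81, and its sources do not say which of these was sequenced or whether the 3 libraries of a group came from separate cultures. The p-values below therefore measure the spread between these libraries, which may be technical. The 10 genes were picked with the difference between shGPR81 and shNT already known, so that difference is described for them here and not tested. Only genes outside the family are given with a p-value. The lists of other genes were also chosen with earlier results of these data known, so their counts and p-values are descriptions too.

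MARVEL proteins sit in cholesterol-rich patches of membrane, often called rafts, and in the vesicles that carry cargo to them. The MAL branch (MAL, MAL2, MALL and the more distant PLLP) is known from polarized epithelia and from myelin, where it takes part in sorting membrane to the apical surface or to the myelin sheath. The CMTM branch, named after the chemokine-like factor CKLF, is known from the handling of surface receptors, with CMTM6 and CMTM4 protecting PD-L1 from degradation and CMTM3, CMTM7 and CMTM8 linked to the uptake of the EGF receptor. MYADM, a myeloid differentiation marker with repeated MARVEL domains, is found in ordered membrane at cell contacts.

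The targeted gene was looked at first. HCAR1 stood at 0.968, 1.02 and 1.36 FPKM in shNT and at 0.978, 0.891 and 0.396 FPKM in the libraries labelled shGPR81, and the groups overlapped. On the log2 scale HCAR1 differed by -0.57 (SE 0.31, adjusted p = 0.38, limma), and p was 0.2 by exact permutation (two-sided), where 3 libraries against 3 cannot go below 0.1. That difference shrank to -0.22 when shGPR81 replicate 3 was left out. The paper reports significantly less GPR81 than in shNT for both of its hairpin lines, by RT-qPCR and by western blotting. HCAR1 was low in these libraries, with 129 reads in shNT and 92 reads in the libraries labelled shGPR81. Corrected for depth, that is a ratio of 0.677 (95% Clopper-Pearson interval 0.513 to 0.892, counting error only). The interval leaves out the spread between libraries. How far the knockdown held in the sequenced cells was not tested. Depth, estimated from low values that are whole multiples of the value of a single read, was between 11947243 and 12791919 reads per library. Of 9 luminal breast markers 2, ESR1 and PGR, were listed at 0 in every library. The other 7 reached 0.1 FPKM in 3 or more libraries, with AGR2 and XBP1 highest at means of 93.5 and 30.6 FPKM. Of 9 mesenchymal markers 7 also reached that level, while CDH2 and SPARC did not. The mesenchymal marker VIM averaged 3552 FPKM in shNT and 4135 FPKM in shGPR81. ESR1, PGR, CDH2 and SPARC were singled out with their values in view.

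MAL2 had the largest log2 difference of the 9 members tested. This gene, which is needed for transcytosis in polarized epithelial cells, was at 1.25, 1.19 and 1.22 FPKM in shNT replicates 1, 2 and 3. In the libraries labelled shGPR81 it was at 0.0259 FPKM in replicate 1, listed at 0 in replicate 2 and at 0.0262 FPKM in replicate 3. Every shNT library was thus far above every library of the other group, and the shNT libraries lay close together, with 1.22 ± 0.0286 FPKM (SD, n = 3) against 0.0174 ± 0.0151 FPKM (SD, n = 3).

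The whole reads behind these values show how few molecules they rest on. The FPKM of MAL2 were whole multiples of the value of a single read in all 6 libraries, and gave 45, 44 and 44 reads in shNT and 1, 0 and 1 reads in the libraries labelled shGPR81. Corrected for depth, the sum of 2 reads against the sum of 133 reads is a ratio of 0.0143 (95% Clopper-Pearson interval 0.00171 to 0.0526, counting error only). HCAR1, with 37, 40 and 52 reads in shNT and 40, 36 and 16 reads in the libraries labelled shGPR81, had a similar number of reads in shNT. Its ratio was 0.677 (95% Clopper-Pearson interval 0.513 to 0.892, counting error only). That interval leaves out the spread between libraries, and the HCAR1 groups overlapped.

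**Figure D1:**
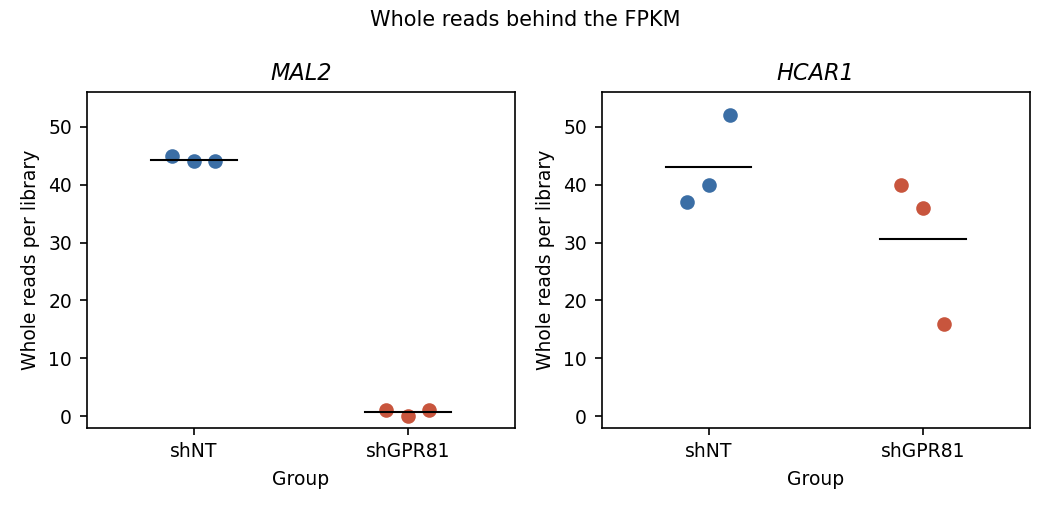
Whole reads per library (vertical axis) for MAL2 (left) and HCAR1 (right), with 1 point per library in shNT and shGPR81 and a line at the group mean. MAL2 had 44 or 45 reads in each shNT library and 0 or 1 in each library labelled shGPR81, while the HCAR1 points of the groups overlap.

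On the scale used for all genes, log2(FPKM + 0.1), the difference in MAL2 was -3.50 (SE 0.22). It ranked 10 from the bottom among the 14349 tested genes, those that reached 0.1 FPKM in 3 or more libraries. MAL2 met that filter in 3 libraries, all of them shNT, so a gene that entered the test this way had to differ. The size depends on the offset added before the logarithm, with -1.13 at an offset of 1 FPKM and -5.71 at 0.01 FPKM. With each library left out in turn it was between -3.56 and -3.39. In the annotation (GENCODE release 44 on GRCh37) MAL2 lies on chromosome 8 from 120177273 to 120257913 on the plus strand, and its transcripts have 4 or 5 exons. Of the 2752 stretches of 75 bases in its canonical transcript, 95 (3.45%) also occur in the antisense gene MAL2-AS1. The libraries were stranded, but the sources do not say that strand was used in counting, so reads of the antisense gene cannot be told apart from those of MAL2 in these stretches.

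Across the family, 1 of the 9 tested members (MAL2) was past both thresholds of the study, a fold change above 1.5 at an adjusted p below 0.05, and lower. Of all tested genes 1.59% were past both and lower and 0.955% past both and higher, or 2.54% in either direction. The count of 1 is given as a description, since the family was picked on this difference. The 9 tested members had a median log2 fold change of 0.07, and all tested genes one of 0.01. Apart from MAL2, the absolute log2 fold change of the tested members was between 0.07 and 0.28. The groups did not overlap for 3 of the 9 (MAL2, PLLP and CMTM7), beside 25.6% of all tested genes.

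**Figure D2:**
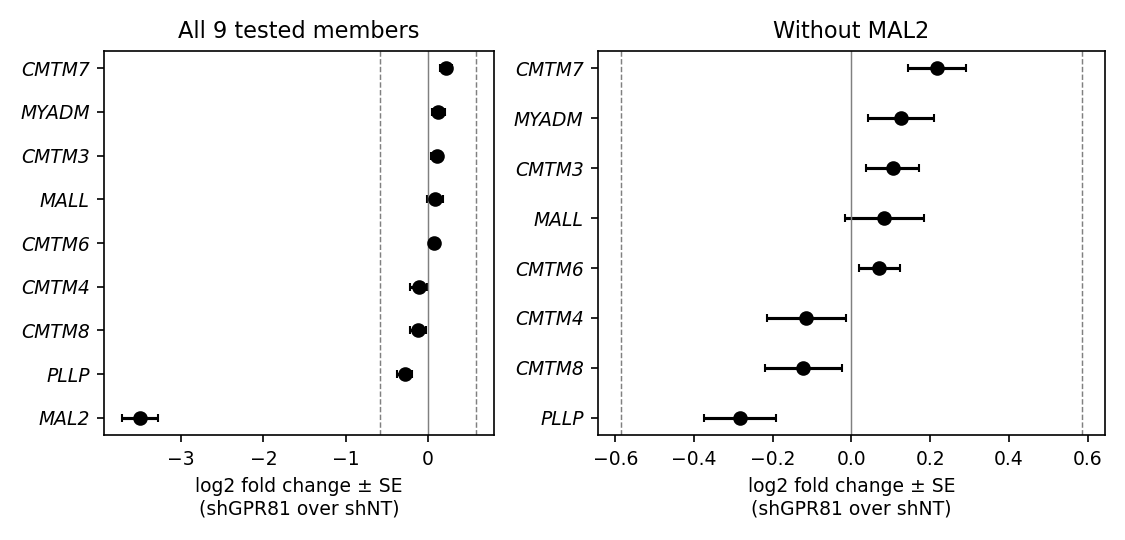
Log2 fold change (horizontal axis, shGPR81 over shNT) with its SE for each of the 9 tested members (left) and for the other 8 on a wider scale (right). Dashed lines mark a fold change of 1.5 in either direction. MAL2 lies at -3.50, and the other members lie between -0.28 and 0.22, inside the dashed lines.

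MAL itself, the founding member of the family and a raft protein of T cells, apical membranes and myelin, was listed at 0 in all 6 libraries and could not be tested. A listed 0 need not mean absent RNA, because VAMP7, a vesicle fusion protein of nearly every cell, was also listed at 0 in all 6 libraries. Why VAMP7 was listed at 0, and whether the same holds for MAL, was not tested. Of the 1010 stretches of 75 bases in the canonical MAL transcript, 0 also occur in transcripts of other genes. MALL, a relative found with caveolin-1 in raft fractions, stood at 6.60, 5.75 and 7.36 FPKM in shNT and at 6.78, 7.11 and 6.91 FPKM in the libraries labelled shGPR81. The shGPR81 values all fell inside the shNT range, and the log2 fold change of 0.08 (SE 0.10) was -0.01 without shNT replicate 2. MALL had the largest share of repeated sequence in the family, since 18.3% of the 75-base stretches of its transcript also occur in transcripts of other genes, among them its pseudogene MALLP1. PLLP (plasmolipin), a proteolipid of myelin and of epithelial apical membrane, was at 12.5, 15.9 and 13.9 FPKM in shNT. Its values of 11.1, 11.9 and 11.5 FPKM in the libraries labelled shGPR81 were all below the lowest shNT value. The difference on the log2 scale was -0.28 (SE 0.09), not past both thresholds.

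The CMTM genes among the members were expressed in every library, at levels that differed more between genes than between groups. Outside the members, CMTM1, CMTM2 and CMTM5 had means of 1.20, 0.0338 and 0 FPKM over the 6 libraries, and are named after their values were seen. CMTM6, the membrane protein that keeps PD-L1 at the cell surface, was at 67.1, 62.5 and 60.7 FPKM in shNT and at 66.7, 67.2 and 65.9 FPKM in the libraries labelled shGPR81. The ranges overlapped and the log2 fold change was 0.07 (SE 0.05). CMTM4, which can take over that role when CMTM6 is lost, was at 4.87, 5.55 and 4.53 FPKM and at 4.84, 4.49 and 4.42 FPKM, with overlapping groups and a log2 fold change of -0.11 (SE 0.10). The PD-L1 gene CD274 was at 2.47 ± 0.335 FPKM in shNT and 2.54 ± 0.149 FPKM in the libraries labelled shGPR81 (SD, n = 3 each; log2 fold change 0.04, adjusted p = 0.893, limma).

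CMTM7, a tumor suppressor candidate of chromosome 3, had the largest positive difference of the family. It was at 39.4, 43.6 and 46.7 FPKM in shNT and at 48.1, 49.3 and 53.1 FPKM in the libraries labelled shGPR81, so that the groups did not overlap. The group means differed by 16.1%, with a log2 fold change of 0.22 (SE 0.07) that was not past both thresholds. CMTM3, which has been linked to the degradation of the EGF receptor, was at 28.4, 32.5 and 31.2 FPKM and at 31.2, 34.2 and 33.7 FPKM, and the groups overlapped (log2 fold change 0.10, SE 0.07). CMTM8, an EGF receptor partner, was at 7.99, 8.53 and 8.05 FPKM and at 6.75, 8.55 and 7.33 FPKM. Here the shGPR81 libraries spanned the whole shNT range, with a log2 fold change of -0.12 (SE 0.10). MYADM was at 60.2, 69.4 and 76.2 FPKM in shNT and at 73.7, 73.1 and 76.8 FPKM in the libraries labelled shGPR81, again with overlap (log2 fold change 0.13, SE 0.08).

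**Figure D3:**
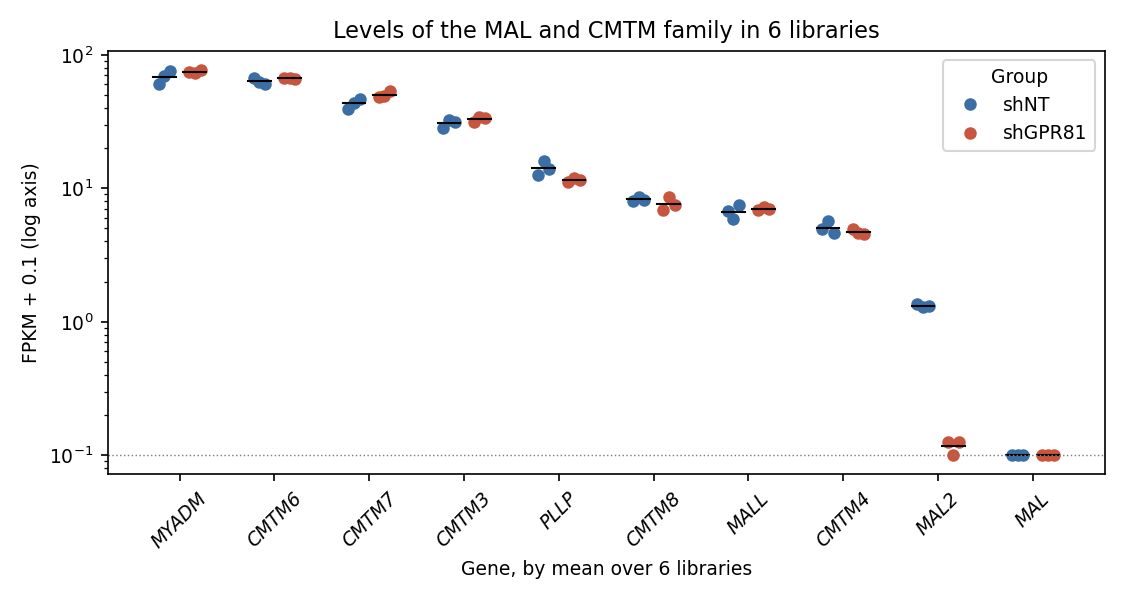
Level of each member as FPKM + 0.1 (vertical log axis) in the 6 libraries, with genes ordered by their mean, 1 point per library and a line at each group mean. The dotted line is a value of 0 FPKM. MYADM and CMTM6 are the highest, MAL lies on the dotted line in all 6 libraries, and MAL2 lies on it in shGPR81 replicate 2 and close above it in shGPR81 replicates 1 and 3.

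FPKM are per length, so the members can be ordered by level. In shNT the order from the top was MYADM (68.6 FPKM), CMTM6 (63.4), CMTM7 (43.2), CMTM3 (30.7), PLLP (14.1), CMTM8 (8.19), MALL (6.57), CMTM4 (4.98) and MAL2 (1.22), with MAL listed at 0. The ranges of neighbours in this order overlapped only for MYADM and CMTM6. The order of the means was the same in the libraries labelled shGPR81, where the ranges overlapped for CMTM8 and MALL and, at the bottom, for MAL2 and MAL. MYADM had a higher mean than 90.8% of the tested genes, CMTM4 than 39.3% and MAL2 than 14.6%. Leaving out MAL2, the coefficient of variation of the tested members was 3.61% to 12.2% in shNT and 1.03% to 12.1% in the libraries labelled shGPR81.

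The CMTM genes of the family lie in 2 clusters on GRCh37. CMTM8, CMTM7 and CMTM6 follow each other on chromosome 3, from 32280171 to 32411813, 32433190 to 32524559 and 32522804 to 32544344. CMTM6 and CMTM7 point at each other and overlap by 1756 bases at their ends. Of the 3233 stretches of 75 bases in the canonical CMTM6 transcript, 252 (7.79%) also occur in annotated CMTM7 transcripts, though not in the canonical one. CMTM3 and CMTM4 lie tail to tail on chromosome 16, from 66637777 to 66647795 and 66648653 to 66730646, with 857 bases between them, and PLLP lies on the same chromosome from 57282459 to 57318584. Within each cluster the log2 fold changes had both signs, but the groups overlapped for CMTM3, CMTM4, CMTM6 and CMTM8, so these signs show no clear direction. CMTM6 and CMTM7 stood at 0.07 and 0.22 while CMTM8 stood at -0.12, and CMTM3 stood at 0.10 while CMTM4 stood at -0.11 (log2 fold change). MAL and MALL lie on chromosome 2, from 95691422 to 95719737 and from 110841447 to 110873599, and MYADM on chromosome 19 from 54368017 to 54379689.

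The stretch before the start of a gene was read for a member without a value above 0 and for an abundant one. The 250 bases before the start are shown for MAL, listed at 0 throughout, at chr2:95025458-95025707 on the plus strand, and for CMTM6, at a mean of 65.0 FPKM over the 6 libraries, at chr3:32502853-32503102 on the minus strand (RefSeq, GRCh38.p14). They are written 5′ to 3′ with each CG dinucleotide in capitals.
MAL: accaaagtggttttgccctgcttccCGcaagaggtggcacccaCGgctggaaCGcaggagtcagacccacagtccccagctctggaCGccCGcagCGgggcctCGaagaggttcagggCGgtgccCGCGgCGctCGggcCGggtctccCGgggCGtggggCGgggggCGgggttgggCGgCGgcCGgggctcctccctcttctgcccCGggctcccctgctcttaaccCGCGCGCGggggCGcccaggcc
CMTM6: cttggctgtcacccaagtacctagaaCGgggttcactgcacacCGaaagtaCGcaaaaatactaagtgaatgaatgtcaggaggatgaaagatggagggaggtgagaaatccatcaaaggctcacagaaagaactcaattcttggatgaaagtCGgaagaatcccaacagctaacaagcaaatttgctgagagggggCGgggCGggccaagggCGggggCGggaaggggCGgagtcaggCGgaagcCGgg
The MAL stretch holds 26 CG and is 75.2% G or C, and 19.6% of the 35116 RefSeq stretches of the same length hold as many. The CMTM6 stretch holds 11 CG and is 53.6% G or C, and 50.3% hold as many. MAL, listed at 0, thus had the stretch denser in CG, while CMTM7, at 46.7 FPKM over the 6 libraries, held 29. CG is its own reverse complement, so the count holds for both strands. The count describes these letters only.

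Other proteins of the MARVEL superfamily served as a wider family. Of 18 such genes, 11 were tested and 0 were past both thresholds in limma or in its treat test, with a median log2 fold change of 0.07. An unadjusted p under 0.05 was found for 1 of the 11 (MARVELD1), beside 19.5% of all tested genes. CKLF, which lies in the cluster of CMTM3 and names the CMTM branch, was at 86.7 ± 5.65 FPKM in shNT and 91.0 ± 4.24 FPKM in the libraries labelled shGPR81 (SD, n = 3 each; log2 fold change 0.07, adjusted p = 0.634, limma). PLP2, an endoplasmic reticulum proteolipid and the highest of these genes, was at 174 ± 29.0 and 192 ± 4.50 FPKM (adjusted p = 0.551). The tight junction genes gave no call either. OCLN (occludin) was at 3.35 ± 0.320 and 3.25 ± 0.0885 FPKM (adjusted p = 0.894), and MARVELD2 (tricellulin) was at 0.111 ± 0.0717 and 0.223 ± 0.109 FPKM (adjusted p = 0.447). MARVELD1 was at 11.7 ± 1.24 and 13.8 ± 0.318 FPKM, higher by 0.24 on the log2 scale (SE 0.09, adjusted p = 0.178).

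Raft scaffolds and the machinery that carries cargo to the apical surface, through which MAL and MAL2 act, were read as a list of 46 genes. Of 38 tested, 0 were past both thresholds in limma or treat, 12 had an unadjusted p under 0.05 (19.5% of all tested genes did), and 20 had a log2 fold change below 0, with a median of -0.03. RAB17, a GTPase of epithelial transport named after its value was seen, had the largest difference of the list, with 0.312 ± 0.108 and 0.0797 ± 0.0365 FPKM (SD, n = 3 each; log2 fold change -1.19, SE 0.31, adjusted p = 0.0827, limma) and no overlap between the groups. The caveolins CAV1, which coats caveolae, and CAV2, its partner, were at 171 ± 9.35 and 163 ± 6.05 FPKM (adjusted p = 0.551) and at 24.2 ± 0.763 and 23.4 ± 1.46 FPKM (adjusted p = 0.723). The flotillins FLOT1 and FLOT2, which scaffold rafts without caveolin, had log2 fold changes of 0.21 (adjusted p = 0.226) and 0.09 (adjusted p = 0.757). ANXA2 and S100A10, which bind each other under the membrane and were the highest of the list, had log2 fold changes of 0.06 and -0.07 (adjusted p = 0.649 and 0.551). The genes SDPR, STOM and TPD52L2 had an adjusted p under 0.05 with a fold change below 1.5, and are named after their values were seen. TPD52L2, of the D52 family whose founding member binds MAL2, was at 110, 119 and 117 FPKM in shNT and at 86.6, 90.3 and 96.1 FPKM in the libraries labelled shGPR81. On the log2 scale it was lower by a difference of -0.34 (SE 0.06, adjusted p = 0.0162, limma). It lies on chromosome 20, where the median over 388 tested genes was -0.39 and 353 of them were below 0. The part of the chromosome in this value was not tested.

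The partners and cargo of the CMTM proteins gave 16 tested genes of 18. Of these, 0 were past both thresholds in limma or treat, and the median log2 fold change was 0.04. An unadjusted p under 0.05 was found for 3 of the 16, beside 19.5% of all tested genes. CD58, an adhesion ligand for T cells that CMTM6 holds at the surface, was at 30.6, 26.2 and 29.5 FPKM in shNT and at 44.3, 41.5 and 35.8 FPKM in the libraries labelled shGPR81. Each value of the second group was above the highest of the first, and the groups also did not overlap for 25.6% of all tested genes. Its log2 fold change of 0.49 (SE 0.09) passed the threshold on adjusted p (0.0279, limma) and not that on the fold change. EGFR was at 37.5 ± 2.01 and 35.8 ± 2.22 FPKM (SD, n = 3 each; adjusted p = 0.672). RAB5C, an early endosome GTPase, and TFRC, the transferrin receptor, were the highest of the list and had log2 fold changes of 0.07 and -0.07 (adjusted p = 0.755 and 0.571).

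**Figure D4:**
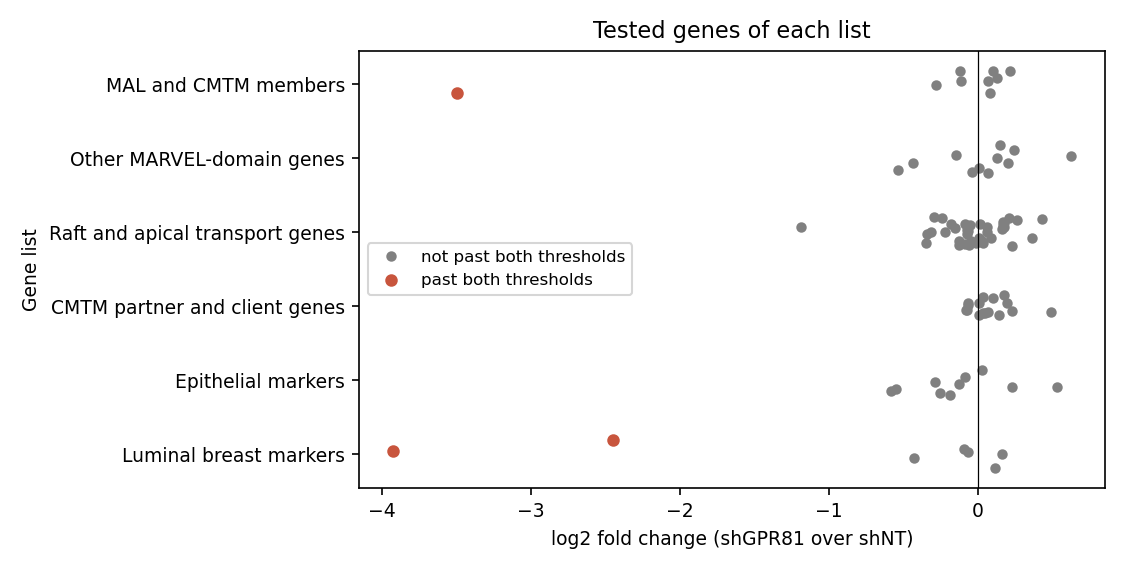
Log2 fold change (horizontal axis, shGPR81 over shNT) of the tested genes of each list (vertical axis), with 1 point per gene and red for genes past both thresholds. The red points are MAL2 among the members and TFF1 and TFF3 among the luminal markers, while the MARVEL, raft and CMTM partner lists hold 0 red points.

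MAL2 is typical of epithelial cells, so epithelial and luminal genes were read beside it. An unadjusted p under 0.05 was reached by 19.5% of all tested genes. Of 12 epithelial markers 10 were tested and 0 were past both thresholds in limma, 2 had an unadjusted p under 0.05 (KRT8 and KRT19), and 7 had a log2 fold change below 0, with a median of -0.16. The summed level of the list was 454 to 580 FPKM in shNT and 480 to 552 FPKM in the libraries labelled shGPR81, while its defining members CDH1 and RAB25 were listed at 0 in every library. KRT8 and KRT18, the simple epithelial keratins and the highest of the list, had log2 fold changes of -0.25 (SE 0.11, adjusted p = 0.246) and -0.19 (SE 0.10, adjusted p = 0.353). KRT19, named after its value was seen, went the other way from MAL2, higher by 0.53 on the log2 scale (SE 0.12, adjusted p = 0.0450, limma) and below the threshold on the fold change. Among 9 luminal breast markers, 7 were tested and 2 were past both thresholds, TFF1 and TFF3, the secreted trefoil peptides. They had log2 fold changes of -3.92 (SE 0.24, adjusted p = 0.000506, limma) and -2.45 (SE 0.17, adjusted p = 0.000657, limma). The list was chosen with earlier results of these data known, so these values and the count of 2 are a description. The summed level of the luminal list was 142 to 160 FPKM in shNT and 127 to 137 FPKM in the libraries labelled shGPR81. AGR2 and XBP1, secretory pathway genes and the highest of the luminal list, stood at -0.06 (adjusted p = 0.588) and -0.09 (adjusted p = 0.662), while SPDEF, a luminal transcription factor named after its value was seen, stood at -0.43 (adjusted p = 0.181) with overlapping groups. In all, 3 of the 7 tested luminal markers (TFF1, TFF3 and SPDEF) had an unadjusted p under 0.05 and 5 had a log2 fold change below 0. The part of luminal cells in the MAL2 values was not tested.

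Markers of other cells were read as well, since the family is also known from blood cells and myelin. The counts at an unadjusted p under 0.05 stand beside 19.5% of all tested genes. Among the 8 haematopoietic markers, 3 were tested and 0 were past both thresholds in limma, with 1 at an unadjusted p under 0.05 and a summed level of 2.68 to 4.84 FPKM in shNT and 1.55 to 2.69 FPKM in the libraries labelled shGPR81. CD14, a monocyte receptor that gave most of this sum, differed by -1.10 on the log2 scale (SE 0.26, adjusted p = 0.0562), and LYZ (lysozyme) by 0.56 (SE 0.31, adjusted p = 0.390). Of 7 myelinating glia markers 3 were tested and 0 had an unadjusted p under 0.05 or were past both thresholds in limma, with a summed level of 43.1 to 44.9 FPKM in shNT and 42.5 to 45.3 FPKM in the libraries labelled shGPR81. MBP, which is also made outside myelin, was at 35.4 ± 0.748 and 35.4 ± 1.21 FPKM, and UGT8, an enzyme of myelin lipid synthesis, at 8.53 ± 0.452 and 8.55 ± 0.544 FPKM (SD, n = 3 each). Of 9 mesenchymal markers 7 were tested and 0 were past both thresholds in limma, while 3 had an unadjusted p under 0.05. Their summed level was 4104 to 4922 FPKM in shNT and 4904 to 5474 FPKM in the libraries labelled shGPR81. FN1 (fibronectin, log2 fold change -0.28, adjusted p = 0.0148), named after its value was seen, and MSN (moesin, log2 fold change 0.30, adjusted p = 0.0378) differed by less than 1.5-fold, and VIM had an adjusted p of 0.267. The part of these cells in the results was not tested.

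Genes around the members were read to see whether whole stretches of chromosome moved with them. Of 161 genes that start within 500000 bases of a member, 69 were tested, and their median log2 fold change was 0.00. Past both thresholds and lower were CETP, a plasma lipid transfer protein near PLLP, and RRAD, a small GTPase near CMTM3 and CMTM4. These were 2 of the 69 tested, while of all tested genes 2.54% were past both in either direction. An unadjusted p under 0.05 was found for 11 of the 69 and for 19.5% of all tested genes. CETP was at 6, 7 and 4 reads in shNT and at 0 reads in each library labelled shGPR81 (adjusted p = 0.0146, limma). It met the filter on low values only through shNT. With a floor of 3 reads set for the group CETP was 5.97-fold lower. The Clopper-Pearson interval of its ratio ran up to 0.230 (counting error only). RRAD was at 20, 24 and 30 reads in shNT and at 10, 10 and 15 reads in the other group (log2 fold change -1.05, adjusted p = 0.0375). RPS9, a ribosomal protein gene, and NDUFA3, of respiratory complex I, the highest of the neighbours and both near MYADM, had adjusted p of 0.818 and 0.890. Around MAL2 the table used here held 2 genes, of which TNFRSF11B was tested and stood at 4.56 and 3.99 FPKM (log2 fold change -0.19, adjusted p = 0.518). The number of neighbours past both thresholds was 0 when shNT replicate 2 or either of shGPR81 replicates 1 and 2 was left out, 1 without shNT replicate 3 or shGPR81 replicate 3, and 3 without shNT replicate 1.

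**Figure D5:**
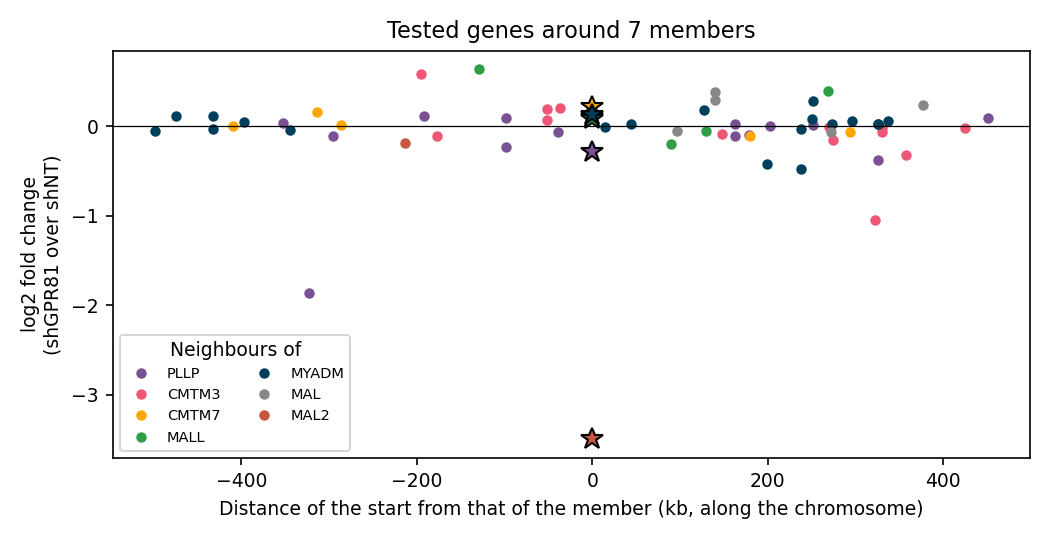
Log2 fold change (vertical axis, shGPR81 over shNT) of tested genes against the distance of their start from that of a member (horizontal axis, kb along the chromosome), colored by member, with a star for the member itself. MAL2 lies at -3.50 while its tested neighbour lies at -0.19, and the pair of neighbours past both thresholds lies at -1.87 (CETP) and -1.05 (RRAD).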

How the data were processed

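RNA-seq of MDA-MB-231 cells was analyzed in 6 libraries, 3 shNT and 3 shGPR81. Per the labels, the submitters' processing notes name TopHat2 2.0.13, Bowtie2 2.2.3, SAMtools 0.1.19 and Cuffnorm 2.2.1. The paper gives the human genome (hg19) for mapping, while the deposited text names a mouse build, and the human build was taken because the cells are human. The annotation is not given in the sources used here. The authors deposited FPKM, 1 value per gene symbol and library, with no read numbers.

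A constant of 0.1 FPKM was added before taking log2, and the groups were fitted without a block by limma 3.58.1 (lmFit, then eBayes with a trend; R 4.3.3). The fit held the 14349 genes that reached 0.1 FPKM in 3 or more libraries, and p-values were adjusted over all of these by Benjamini-Hochberg. Fold changes on this scale understate those of low genes. A call needed a fold change above 1.5 with an adjusted p below 0.05, which are the paper's thresholds. The fits were tested on simulated data.

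Whole reads were sought as the smallest whole numbers that give the FPKM of a gene in all libraries, within a relative tolerance of 0.0001, and were found for 3588 of 15931 genes. Depth used the longest GENCODE transcript of each gene. Intervals (95%, Clopper-Pearson) and the floor of 3 reads cover counting error only.

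The members and lists were chosen with earlier results of these data known. The text names all members, HCAR1, the genes of each other list past both thresholds, the 2 highest of each list, and CKLF, MARVELD1, MARVELD2, OCLN, PLP2, CAV1, CAV2, FLOT1, FLOT2, CD274, CD58 and EGFR, and other genes are marked. Alternatives were other offsets and filters, leaving out each library, a replicate block, median centring, quantile normalization and limma's treat.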

Additional observations from a re-analysis of the deposited data

How the results depend on the processing

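The number of members past both thresholds was 1 lower (MAL2) and 0 higher in all 14 alternatives, and the MARVEL, raft and CMTM partner lists stayed at 0. The steady count of members is no support for a difference in MAL2. The family was picked on this difference, and MAL2 met the filter only through shNT. The fits with a library left out also kept the genes filtered on all libraries. The count over all tested genes, 228 lower and 137 higher, was 46 and 9 under treat, 142 and 75 with an offset of 1 FPKM, and 121 to 256 and 65 to 152 with a library left out. Among the neighbouring genes 2 were past both thresholds, 1 with a filter of 1 FPKM and 1 without a filter, 0 under treat and 0 with an offset of 1 FPKM, and 0 to 3 with a library left out. Why these counts moved was not tested. HCAR1 had the same sign in the 13 alternatives that held it, all but the filter of 1 FPKM (log2 fold change -0.78 to -0.22), with an adjusted p of 0.305 to 0.677 outside treat and 1 under it. Of the members, MALL changed sign in 1 of 13 alternatives and the other 8 tested members in 0.

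Replicate numbers were not taken as pairs, since the paper's methods name no pairing and the labels do not say what a shared number marks. The deviations of same-numbered libraries correlated at 0.120, 0.022 and 0.0058 across genes, which are not independent replicates. The deviations of shGPR81 replicate 2 correlated best with those of shNT replicate 3. With the replicate number as a block, 197 genes were lower and 115 higher, 2 neighbouring genes and 1 member were past both thresholds, and HCAR1 stood at -0.57 (adjusted p = 0.393). At this depth MAL2 rests on 44 or 45 reads in each shNT library.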
